A study of Homo sapiens with 6 samples.

Results

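The genes described here encode 10 proteins that B cells and B-cell lymphomas carry on their surface, several of which are targets of therapeutic antibodies: MS4A1, CD22, CD37, CD38, CD5, CD52, FCER2, ROR1, CD40 and TNFRSF13C. They were chosen by gene symbol, by a rule that holds no measured value but was set with earlier results of these data known, and all 10 were found among the 25277 gene rows of the deposited table. RNA came from 2 established human cell lines named Jeko and Rec-1, both derived from mantle cell lymphoma. All cells were stable lines with Cas9 and a tet-on vector that doxycycline switches on, and all were induced for 48 h. Each line had 1 control with the empty vector and 2 libraries with a different single guide RNA against NR4A1, a nuclear receptor, called sgRNA 1 and sgRNA 2. Values are FPKM, fragments scaled by transcript length and by library size. The question of the series is what follows from loss of NR4A1, in a study of its inhibition together with ibrutinib, an inhibitor of B-cell receptor signalling.

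Surface antigens of B cells fall into a few kinds. MS4A1 (CD20) and the tetraspanin CD37 span the membrane several times and are bound by antibodies in lymphoma therapy, while CD52 is a very short peptide held by a glycosylphosphatidylinositol (GPI) anchor and is the target of alemtuzumab. CD22 and CD5 dampen B-cell receptor signalling, CD38 is an enzyme that consumes NAD, and FCER2 (CD23) is the low-affinity IgE receptor. CD40 and TNFRSF13C (the BAFF receptor) are receptors of the TNF receptor superfamily that feed the noncanonical NF-κB pathway, and ROR1 is a receptor tyrosine kinase-like protein of embryonic tissue that binds WNT5A and reappears on B-cell cancers. In the clinic, mantle cell lymphoma is typically positive for MS4A1 and CD5 and negative for FCER2.

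The libraries did not sort by line. Over protein-coding genes that averaged 1 FPKM or more, the library labelled Rec-1 control correlated at 0.988 with the Jeko control. With Rec-1 sgRNA 1 and 2 it correlated at 0.805 and 0.812. Each is a correlation over genes of 1 library pair, and genes are no replicates. CCND1 (cyclin D1), the defining gene of mantle cell lymphoma, ranged from 442 to 815 FPKM over the 3 Jeko libraries and the Rec-1 control and was 0.696 and 0.592 in Rec-1 sgRNA 1 and 2, so the defining marker was nearly absent from the libraries labelled Rec-1 sgRNA. Of all genes tested, 12.8% were higher and 13.0% lower in Rec-1 sgRNA than in Jeko sgRNA (limma adjusted p under 0.05). Of 8 tested markers of B cells and of mantle cell lymphoma, 0 were higher and 3 lower past this threshold (median log2 difference −0.49). Beside CCND1, the lower ones were the transcription factors SOX11, at 3.60 and 2.45 FPKM in Rec-1 sgRNA 1 and 2 and 7.11 or more elsewhere, and EBF1, at 3.91 and 4.60 against 9.63 or more. CD79A and CD79B were at 151 FPKM or more in all 6. NR4A1 itself was at 3.89 and 4.44 FPKM in Jeko sgRNA 1 and 2, below Jeko control at 5.99, but at 27.4 and 12.7 in Rec-1 sgRNA 1 and 2, above Rec-1 control at 11.6. Every comparison below takes the libraries as labelled, and where Rec-1 sgRNA is set against its control an effect of the sgRNA and any other difference between these libraries cannot be told apart.

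Of the 10 genes, 9 averaged 1 FPKM or more across all 6 libraries and were tested. CD5 was not, with 0.0785 FPKM in Jeko control, 0.0300 in Jeko sgRNA 1, listed at 0 in Jeko sgRNA 2, 0.0119 in Rec-1 control, then 0.0642 and 0.0572 in Rec-1 sgRNA 1 and 2. No library thus held more than a trace of the transcript of this antigen, and CD6, its close relative, was at 0.0394 FPKM or less in all 6. MS4A1 was the highest of the 10 in all 3 Jeko libraries and the Rec-1 control, and CD52 in both Rec-1 sgRNA libraries.

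**Figure D1:**
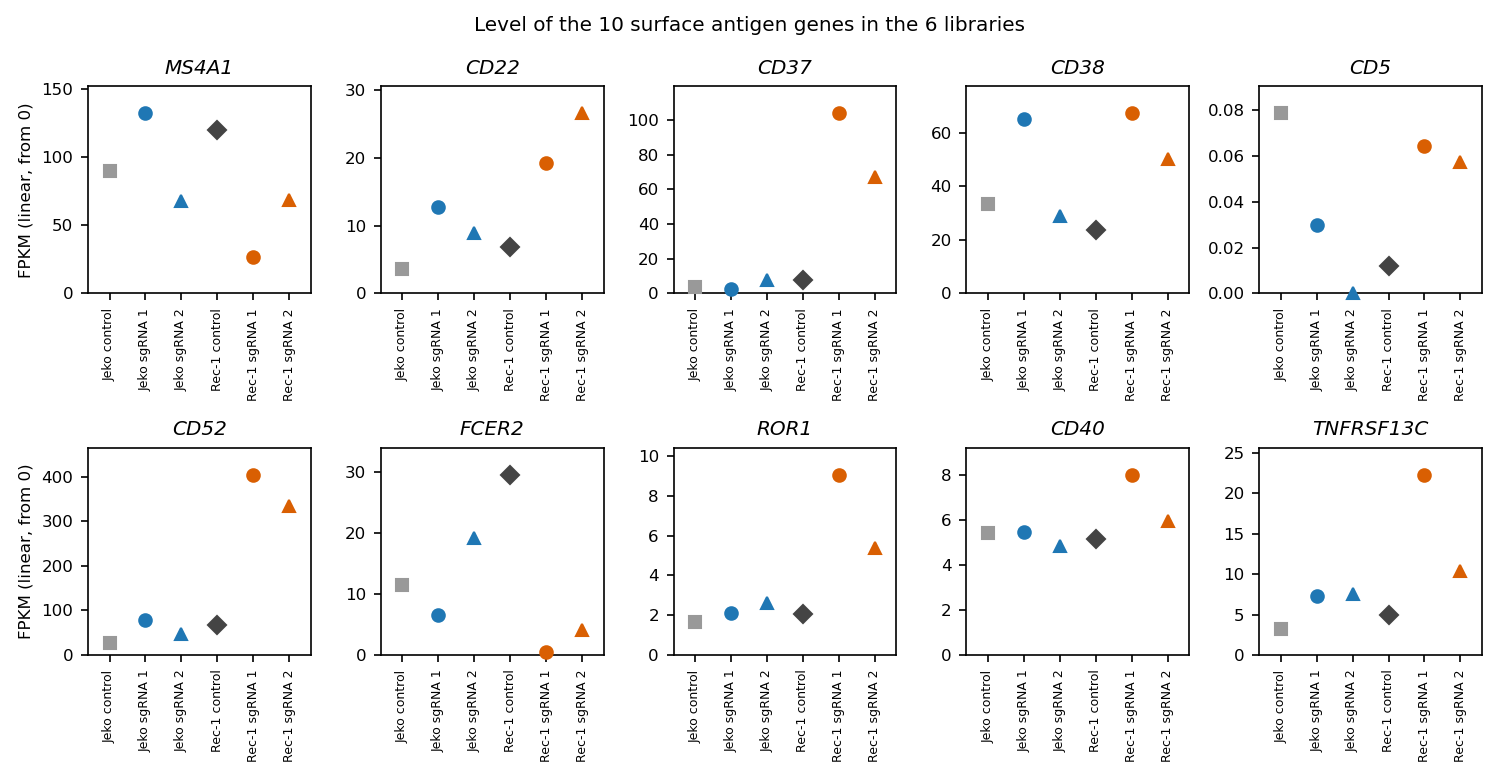
FPKM of each of the 10 genes (1 panel a gene, linear axis from 0, different scale in each) in the 6 libraries, 1 point a library: squares and diamonds are the Jeko and Rec-1 controls, circles sgRNA 1 and triangles sgRNA 2. CD37 and CD52 stand far higher in both Rec-1 sgRNA libraries, at 67.3 FPKM or more and 333 or more, than in the other 4.

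Promoter sequences are shown for the genes at either end of the levels in the Rec-1 sgRNA libraries. The RefSeq promoter table (GRCh38.p14) held 5 of the 10 genes, CD22, CD38, CD52, FCER2 and ROR1. The 250 bases before the start are given for CD52, the most abundant of the 10 in the Rec-1 sgRNA libraries (chr1:26317708-26317957, plus strand), and FCER2, the lowest of the 9 tested there (chr19:7702132-7702381, minus strand). Capitals mark matches on either strand to 4 motifs, the NR4A response element AAAGGTCA, its AGGTCA half-site (contained in the former), the octamer ATGCAAAT bound by OCT factors, and AGAGGAAG, a site of ETS factors such as PU.1.
CD52: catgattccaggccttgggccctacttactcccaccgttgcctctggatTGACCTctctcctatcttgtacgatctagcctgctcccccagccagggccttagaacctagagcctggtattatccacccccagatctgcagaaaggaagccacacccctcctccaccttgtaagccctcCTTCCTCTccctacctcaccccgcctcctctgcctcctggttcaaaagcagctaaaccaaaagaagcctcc
FCER2: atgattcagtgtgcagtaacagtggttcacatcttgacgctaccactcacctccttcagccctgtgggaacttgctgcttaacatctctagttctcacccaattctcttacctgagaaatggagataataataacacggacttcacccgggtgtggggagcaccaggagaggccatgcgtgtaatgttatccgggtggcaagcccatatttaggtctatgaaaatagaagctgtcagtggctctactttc
The CD52 window held the half-site, on the minus strand 201 to 196 bases before the start, and the ETS motif, 71 to 64 bases before it. The FCER2 window held none of the 4, nor did those of CD22, CD38 and ROR1. Of 35116 promoter windows of this length, 12.1% held the half-site, 3.6% the ETS motif, 1.63% the octamer and 1.05% the full NR4A element. A match or its absence describes these letters only.

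Between the libraries labelled Rec-1 sgRNA and Jeko sgRNA, CD37, CD52 and ROR1 were higher in Rec-1 and passed the test, and the largest difference of the 9 was that of CD37. This comparison has 2 libraries on each side, whose guides were taken as replicates of a line. It used limma on log2(FPKM + 1) with Benjamini-Hochberg adjustment over 11400 genes, and genes with an adjusted p under 0.05 are said to pass. Of all genes tested, 25.9% passed it, 12.8% higher and 13.0% lower in Rec-1 sgRNA. The 2 libraries labelled as controls differed little, with 2.51% of genes at least 1 apart on the log2 scale. Whether the lines differ cannot be read from this, as the Rec-1 control did not go with the Rec-1 sgRNA libraries. Line, sgRNA and any other difference between the libraries cannot be told apart here. Of the 9 surface antigen genes, 3 rose past the threshold and 0 were lower past it, with 4 at an unadjusted p under 0.05 (42.3% of all genes). Their median log2 difference was 0.95, against −0.03 over all genes. Nothing in the labels says that the libraries came from separate cultures, so the p-values measure the spread between these libraries only.

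CD37, a tetraspanin of mature B cells, was 3.68 FPKM in Jeko control, 2.78 in Jeko sgRNA 1, 7.66 in Jeko sgRNA 2, 7.98 in the Rec-1 control, 104 in Rec-1 sgRNA 1 and 67.3 in Rec-1 sgRNA 2. Both Rec-1 sgRNA libraries were far above the other 4, with no overlap, and the Rec-1 control lay beside Jeko sgRNA 2. The mean of the Rec-1 sgRNA libraries, 85.6 ± 25.9 FPKM (SD, n = 2), was 16.4 times that of the Jeko sgRNA libraries, 5.22 ± 3.45 (SD, n = 2). The limma log2 difference was 3.89 (SE 0.50, adjusted p 0.0133). In rank, CD37 stood above 96.5% and 94.6% of protein-coding genes in Rec-1 sgRNA 1 and 2, and above 54.7% to 68.4% in the other 4. CD37 (GRCh37, chr19:49838428-49846592, plus strand) overlaps TEAD2 on the opposite strand, and TEAD2 was at 0.517 FPKM or less in all libraries.

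CD52 was 26.3 FPKM in Jeko control, 78.5 and 47.8 in Jeko sgRNA 1 and 2, 68.1 in Rec-1 control, and 404 and 333 in Rec-1 sgRNA 1 and 2. The Rec-1 sgRNA libraries again did not overlap with the rest, while the Rec-1 control fell among the Jeko sgRNA libraries. The ratio of the sgRNA means was 5.84, from 369 ± 50.3 and 63.1 ± 21.7 FPKM (SD, n = 2 each), and the limma log2 difference was 2.56 (SE 0.31, adjusted p 0.0120). With these levels CD52 was above 99.1% and 98.9% of protein-coding genes in Rec-1 sgRNA 1 and 2. CD52 (chr1:26644449-26647014, plus strand) overlaps the start of UBXN11 on the opposite strand. UBXN11 was 8.77, 4.14 and 3.17 FPKM in Jeko control, sgRNA 1 and sgRNA 2, and 9.88, 5.87 and 3.72 in Rec-1. It was thus below the own-line control with either guide in both lines. The GPI anchor that carries CD52 is built and attached by PIG family and related proteins. Of 24 such genes tested 3 were higher past the threshold, 1 was lower and 20 did not pass (median −0.11). Of all genes tested, 12.8% were higher and 13.0% lower.

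ROR1 (chr1:64239688-64647181, plus strand) was low in the Jeko control at 1.63 FPKM, with 2.12 and 2.63 in Jeko sgRNA 1 and 2, 2.05 in Rec-1 control, and 9.06 and 5.36 in Rec-1 sgRNA 1 and 2. The Rec-1 sgRNA libraries lay above the others, with 7.21 ± 2.62 against 2.37 ± 0.360 FPKM in the Jeko sgRNA libraries (SD, n = 2 each). The limma log2 difference was 1.25 (SE 0.28, adjusted p 0.0444), close to the threshold. WNT5A, its ligand, was at 0.305 and 0.408 FPKM in Rec-1 sgRNA 1 and 2 and at 0.00824 or less elsewhere. ROR2, its paralogue, was listed at 0 in both Rec-1 sgRNA libraries and was between 0.171 and 0.248 FPKM in the other 4. Of 11 tested genes of ROR1 signalling, 0 passed the threshold (25.9% of all genes did). Limma gave 1 of them an unadjusted p under 0.05, against 42.3% of all genes.

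These calls rest on few libraries. Without any single sgRNA library the ROR1 call was lost (limma adjusted p 0.0621 to 0.208), as it was with no filter on low values (0.0878) and with the guide number as a block (0.0616). The CD37 call was lost without Jeko sgRNA 1, Rec-1 sgRNA 1 or Rec-1 sgRNA 2 (differences from 3.29 to 4.20, limma adjusted p 0.0678 to 0.112), and the CD52 call without Jeko sgRNA 2, Rec-1 sgRNA 1 or Rec-1 sgRNA 2 (2.21 to 2.70, limma adjusted p 0.0566 to 0.104).

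**Figure D2:**
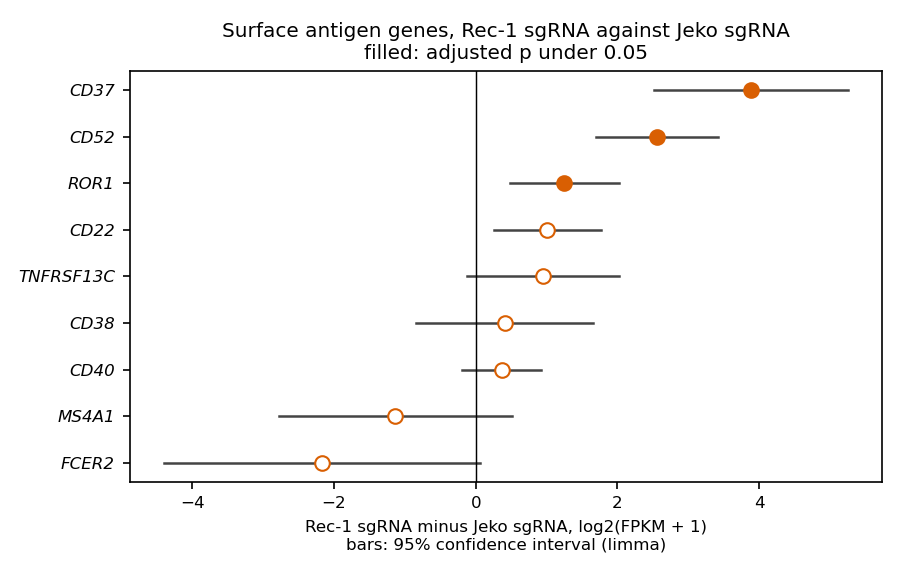
Difference of the means of log2(FPKM + 1), Rec-1 sgRNA minus Jeko sgRNA (2 libraries each), for the 9 genes tested, with 95% confidence intervals from limma; filled points passed an adjusted p of 0.05. CD37, at 3.89, and CD52, at 2.56, lie furthest to the right, and FCER2, at −2.17 with the widest interval, furthest to the left.

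The other 6 genes did not pass the threshold. With protein-coding genes alone, CD22 and FCER2 did (limma adjusted p 0.0305 and 0.0496), as did CD22 with an adjustment for transcript length (0.0400). CD22, a sialic acid-binding inhibitory receptor (chr19:35810164-35838264), was 3.57 FPKM in Jeko control, 12.8 and 8.95 in Jeko sgRNA 1 and 2, 6.88 in Rec-1 control, and 19.3 and 26.6 in Rec-1 sgRNA 1 and 2. Both Rec-1 sgRNA libraries exceeded the other 4, and the limma log2 difference was 1.01 (95% CI 0.26 to 1.76, adjusted p 0.0657). TNFRSF13C (chr22:42318036-42322810, minus strand) was 3.18, 7.34 and 7.54 FPKM in Jeko control, sgRNA 1 and sgRNA 2, and 5.005, 22.3 and 10.4 in the same order in Rec-1. Its 2 Rec-1 sgRNA libraries were both the highest but stood apart from each other, and the limma difference was 0.95 (95% CI −0.13 to 2.02, adjusted p 0.1496).

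MS4A1, the target of rituximab (chr11:60223319-60238225, plus strand), was 89.98 FPKM in Jeko control, 132 and 67.8 in Jeko sgRNA 1 and 2, 120.0 in Rec-1 control, and 26.4 and 68.5 in Rec-1 sgRNA 1 and 2. Only Rec-1 sgRNA 1 lay below all others, and Rec-1 sgRNA 2 was level with Jeko sgRNA 2. The limma difference was −1.13 (95% CI −2.78 to 0.52, adjusted p 0.229), an interval that covers both a far lower and a slightly higher level. None of 13 other MS4A family genes had a mean of 1 FPKM.

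FCER2 (chr19:7753644-7767032, minus strand) was 11.5 FPKM in Jeko control, 6.52 and 19.2 in Jeko sgRNA 1 and 2, 29.6 in Rec-1 control, and 0.481 and 4.09 in Rec-1 sgRNA 1 and 2. The 2 Rec-1 sgRNA libraries were the lowest, and the Rec-1 control, the highest, was 61.5 times Rec-1 sgRNA 1. The limma difference of −2.17 had an adjusted p of 0.125 (95% CI −4.40 to 0.07). FCER2 was higher with guide 2 in both lines, and with guide number as a block the SE fell from 0.81 to 0.20 and the gene passed (limma adjusted p 0.0121). ADAM10, the protease that sheds the FCER2 protein, rose past the threshold in Rec-1 sgRNA (54.9 and 47.5 FPKM against 20.0 and 19.7 in Jeko sgRNA, limma log2 difference 1.32, adjusted p 0.0145), a call lost without any 1 of the 4 sgRNA libraries.

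CD38 (chr4:15779898-15854855, plus strand) was 33.4, 65.1 and 29.1 FPKM in Jeko control, sgRNA 1 and sgRNA 2, and 23.8, 67.4 and 50.4 in Rec-1. The groups overlapped, and Jeko sgRNA 1 was level with Rec-1 sgRNA 1 (limma difference 0.41, 95% CI −0.84 to 1.66, adjusted p 0.534). BST1, its paralogue, was below 0.8 FPKM in every library. CD40 (chr20:44746910-44758502, plus strand) varied least of the 9. It was 5.45, 5.46 and 4.87 FPKM in Jeko control, sgRNA 1 and sgRNA 2, and 5.17, 8.03 and 5.96 in Rec-1, with a limma difference of 0.36 (95% CI −0.19 to 0.92, adjusted p 0.245).

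In order of mean FPKM in the Rec-1 sgRNA libraries, CD52 (369) came before CD37 (85.6), CD38 (58.9), MS4A1 (47.4), CD22 (22.9), TNFRSF13C (16.4), ROR1 (7.21), CD40 (6.99) and FCER2 (2.28). Except for CD52 and CD37 at the top and CD40 and FCER2 at the bottom, neighbours in this order lay within the sum of their SDs, so the order between CD37 and CD40 is not resolved from one gene to the next. Both Rec-1 sgRNA libraries were above the 4 others at 6 of the 9 (CD22, CD37, CD52, ROR1, CD40 and TNFRSF13C) and below them at FCER2, where 27% and 29.1% of all genes tested did so.

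Against the control of the own line, 4 of the 9 were higher in all 4 sgRNA libraries: CD22, CD52, ROR1 and TNFRSF13C (21% of all genes tested did so), and 0 were lower in all 4 (21.1% of all genes). None of the 9 passed the limma test over both lines, in which 0.246% of all genes were called, and 4 had an unadjusted p under 0.05 against 21.1% of all genes. CD22 came nearest: it was 3.59 and 2.51 times its control in Jeko sgRNA 1 and 2, and 2.80 and 3.86 times in Rec-1, a limma log2 difference of 1.47 (SE 0.24, adjusted p 0.137). For TNFRSF13C the ratios to control were 2.31 and 2.37 for Jeko, against 4.46 and 2.08 for Rec-1 (1.23, SE 0.32, limma adjusted p 0.180), and for CD52 they were 2.98 and 1.81, then 5.94 and 4.90 (1.80, SE 0.37, limma adjusted p 0.169). Both lines thus had CD22, CD52 and TNFRSF13C higher with either guide, without a call. Each line had 1 control, so variation between controls of the same line was not measured. The spread in this test does include how far the sgRNA differences of the lines lie apart. Without the Jeko control, where only Rec-1 gives the difference, CD22, CD37 and CD52 passed (limma adjusted p 0.0479, 0.0372 and 0.0255).

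**Figure D3:**
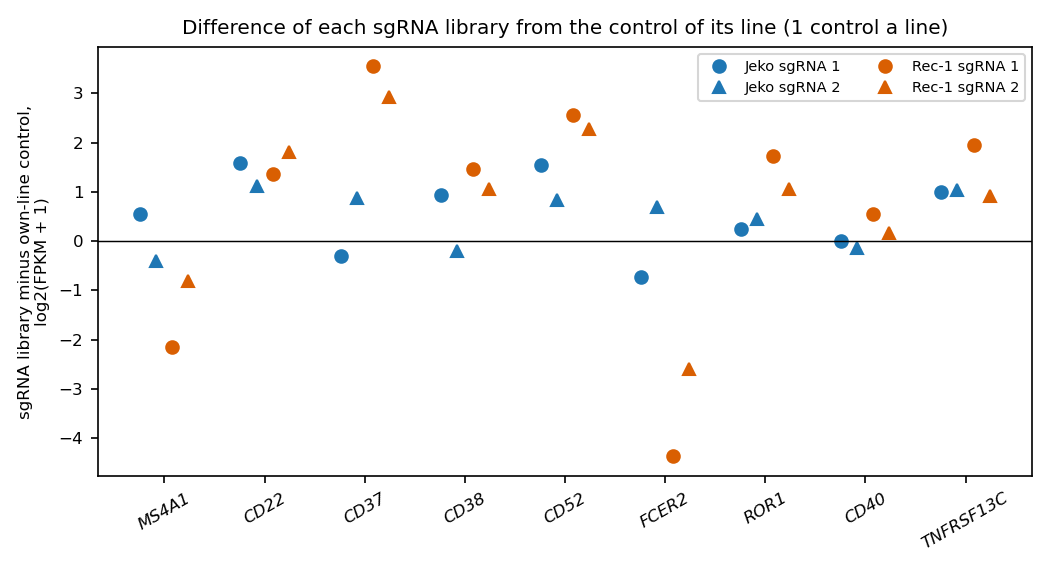
Difference of each sgRNA library from the control of its own line in log2(FPKM + 1), for the 9 genes tested; blue points are Jeko, orange points Rec-1, circles sgRNA 1 and triangles sgRNA 2. CD22, CD52, ROR1 and TNFRSF13C lie above 0 in all 4, while MS4A1, CD37, CD38, FCER2 and CD40 have points on both sides.

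Within Jeko alone, 0 of the 9 passed limma (0.439% of all genes did), and 2 had an unadjusted p under 0.05 (11.3% of all genes). These were CD22, with a difference of 1.36 (95% CI 0.44 to 2.28, adjusted p 0.393), and CD52, with 1.19 (95% CI 0.14 to 2.24, adjusted p 0.414). MS4A1 had a Jeko difference of 0.07 (95% CI −1.95 to 2.09), because sgRNA 1 was above the control and sgRNA 2 below it. Within Rec-1, CD22, CD37 and CD52 passed (limma adjusted p 0.0469, 0.0373 and 0.0263) with differences of 1.59, 3.24 and 2.41, where 19.2% of all genes passed, 10% higher. An unadjusted p under 0.05 was reached by 6 of the 9 there, against 38.6% of all genes. Each of these 3 calls was lost without either Rec-1 guide (limma adjusted p 0.114 to 0.165) and with no filter on low values (0.0513 to 0.0826). CD22 and CD37 also lost it without either Jeko guide, and CD22 with a pseudocount of 0.1 or a minimum mean of 5 FPKM. The interaction of line and sgRNA was called for 6.94% of all genes and 0 of the 9, and 1 of them, CD37, had an unadjusted p under 0.05, against 21.9% of all genes (2.95, SE 0.86, limma adjusted p 0.159).

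The guides of a line differed from each other at many of these genes. A difference of at least 1 on the log2 scale, a doubling at high levels, was seen between the 2 Jeko guides at CD37, CD38 and FCER2, or 3 of 9, against 4.68% of all genes tested. Between the 2 Rec-1 guides it was seen at MS4A1, FCER2 and TNFRSF13C, also 3 of 9, against 3.88%. FCER2 was higher with guide 2 by 1.43 in Jeko and 1.78 in Rec-1. MS4A1 was lower with guide 2 in Jeko, by −0.96, and higher in Rec-1, by 1.34. Each guide is 1 library in each line, so these differences have no test.

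TNFRSF13C binds BAFF alone, while TNFRSF13B and TNFRSF17 bind both BAFF and the related APRIL. These other receptors were lower in Rec-1 sgRNA. TNFRSF13B (TACI) was 76.6 FPKM in Jeko control, 32.6 and 26.6 in Jeko sgRNA 1 and 2, 90.3 in Rec-1 control, and 12.1 and 7.61 in Rec-1 sgRNA 1 and 2, and it fell by 1.52 on the log2 scale from Jeko to Rec-1 sgRNA (limma adjusted p 0.0315). TNFRSF17 (BCMA), a receptor of plasma cells and a therapy target itself, ranged from 79.8 to 140 FPKM over the Jeko libraries and Rec-1 control and was 26.6 and 28.1 in Rec-1 sgRNA (limma difference −1.69, adjusted p 0.0123). Both calls were lost without any 1 of the 4 sgRNA libraries. Both genes were also below the own-line control in all 4 sgRNA libraries. TNFSF13B (BAFF), the ligand of TNFRSF13C, was at 0.0700 FPKM or less in every library. TNFSF13 (APRIL), which TNFRSF13C does not bind, was 10.4 and 12.2 FPKM in Rec-1 sgRNA and below 0.8 elsewhere (limma difference 3.35, adjusted p 0.00167). TNFSF13 was thus tested only because it was high in Rec-1 sgRNA, which fixed its direction.

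Signalling genes below CD40 and TNFRSF13C moved in both directions. Of 13 tested genes of CD40 signalling, 4 rose, 4 fell and 5 did not pass (median −0.33), where 12.8% of all genes rose and 13.0% fell. At 1 FPKM or more were 11 of the 14 listed in each Jeko library and the Rec-1 control, and 13 in each Rec-1 sgRNA library. Some risers were thus tested only because they were high in Rec-1 sgRNA. The fallers were TNFAIP3, a feedback inhibitor of NF-κB (limma difference −2.85, adjusted p 0.00400), NFKB2, the precursor subunit of the pathway (−2.35, adjusted p 0.0138), BIRC3 (−2.28, adjusted p 0.00417) and MAP3K14, the NF-κB-inducing kinase (−2.18, adjusted p 0.00302). NFKB2 was 50.1 and 82.7 FPKM in Jeko sgRNA 1 and 2 and 12.7 and 10.9 in Rec-1 sgRNA. The TNFAIP3 call was lost without either Rec-1 guide, that of NFKB2 without Jeko sgRNA 2 or either Rec-1 guide, and that of BIRC3 without Jeko sgRNA 1 or Rec-1 sgRNA 1. The risers were TRAF1, TRAF2, TRAF5 and BIRC2, adaptors and a ubiquitin ligase of these receptors. CD40LG, the ligand of CD40, was at 0.0345 FPKM or less in all 6 libraries.

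CD22 binds sialic acid that ST6GAL1 attaches to glycans, and signals through the phosphatase PTPN6. ST6GAL1 was 35.8 and 34.8 FPKM in Rec-1 sgRNA and 38.3 and 37.9 in Jeko sgRNA (limma difference −0.10, adjusted p 0.661), and PTPN6 was between 19.9 and 27.5 FPKM in the 4 sgRNA libraries (−0.20, adjusted p 0.542). Of the complement regulators that can limit antibody therapy, CD46, CD55 and CD59 did not pass. CD55 was 19.4 and 22.4 FPKM in Rec-1 sgRNA against 29.9 and 39.8 in Jeko sgRNA (−0.70, limma adjusted p 0.0931).

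Other B-cell surface antigens were compared in the same way. Of 43 in a list, 31 were tested, of which 10 rose, 3 fell and 18 did not pass between Jeko and Rec-1 sgRNA (median 0.24). Of all genes tested, 12.8% rose and 13.0% fell past the threshold. The filter took the mean over all 6 libraries. MME and SLAMF6, near 0 in the Jeko libraries and the Rec-1 control, were thus tested only because they were high in Rec-1 sgRNA. For such genes the direction followed from the filter. The largest rises were those of MME (CD10), a marker of germinal centre B cells, at 57.2 and 40.3 FPKM in Rec-1 sgRNA and 0.0573 or less in the other 4 libraries (limma difference 5.58, adjusted p 0.00141), and of CD27, a marker of memory B cells (4.63, adjusted p 0.00139). CD24 (4.14), CD180 (3.81) and SLAMF6 (3.81) followed, with limma adjusted p of 0.00259, 0.0114 and 0.00141, and CD180 lost its call without either Rec-1 guide. CD9, a tetraspanin related to CD37, was lower in Rec-1 sgRNA, at 77.3 and 111 FPKM in Jeko sgRNA and 0.0942 and 0.152 in Rec-1 sgRNA (limma difference −6.38, adjusted p 0.00139).

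**Figure D4:**
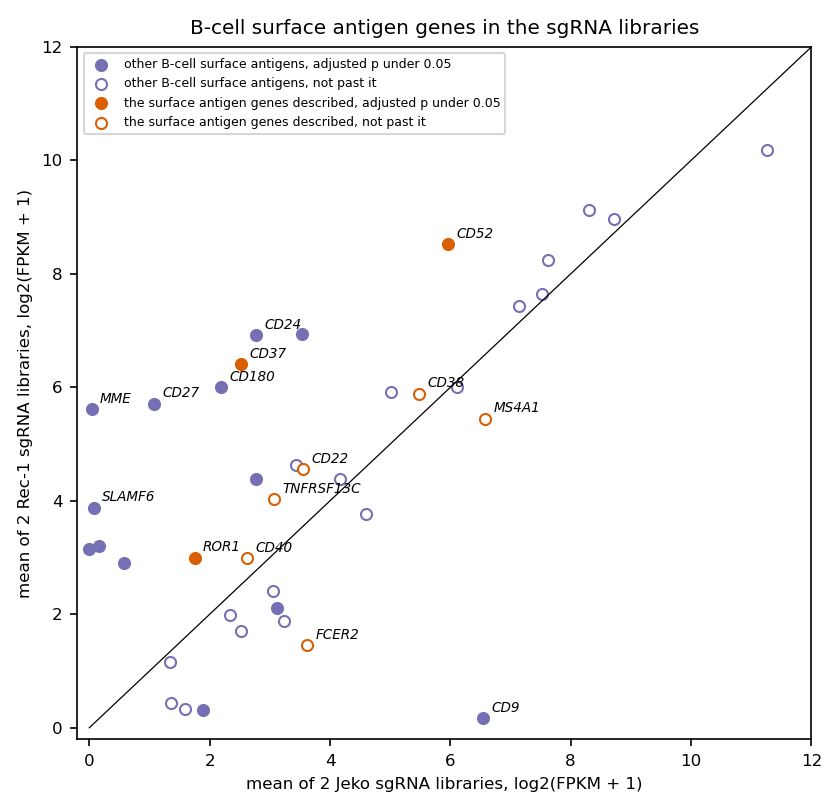
Mean log2(FPKM + 1) of the 2 Jeko sgRNA libraries (x axis) and the 2 Rec-1 sgRNA libraries (y axis) for 31 other B-cell surface antigens (purple) and the 9 genes tested (orange), with the line of equal level; filled points passed an adjusted p of 0.05. CD37 and CD52 lie above the line with MME, CD27, CD24, CD180 and SLAMF6, and CD9 lies at the bottom right.

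Markers of other blood cells also differed, in both directions. The summed level of 10 T cell markers was 17.8 to 23.9 FPKM in the Jeko libraries and in Rec-1 control and 106 and 123 in Rec-1 sgRNA 1 and 2, carried by CD3D at 66.3 and 95.3 FPKM, while CD2 was at 0.0291 or less in all 6. Of 5 T cell markers tested, 4 were higher and 1 (CD247) lower in Rec-1 sgRNA than in Jeko sgRNA (12.8% and 13.0% of all genes tested). At 1 FPKM or more were 2 of the 10 in each Jeko library and the Rec-1 control, and 4 in each Rec-1 sgRNA library. Some of those higher, among them CD3D, were thus tested only because they were high in Rec-1 sgRNA, which fixed their direction. The sum of 7 NK cell markers was 1.36 to 4.22 in the Jeko libraries and Rec-1 control. It was 48.8 and 48.0 in Rec-1 sgRNA 1 and 2, mostly PRF1, with GNLY listed at 0 in all 6. The 8 myeloid markers summed to 2.20 to 3.47 against 11.9 and 17.0 FPKM, mostly CD33, with MPO listed at 0 in all 6. Of 2 myeloid markers tested, CD33 was higher and CEBPA lower past the threshold. CEBPA was listed at 0 in both Rec-1 sgRNA libraries and at 1.53 to 2.58 FPKM in the other 4. CD33 entered the test through the Rec-1 sgRNA libraries alone and CEBPA through the other 4, which fixed both directions. Of 6 plasma cell markers tested, 4 were lower in Rec-1 sgRNA (median −1.57), where 13.0% of all genes tested were lower and 12.8% higher. The sum of all 7 plasma cell markers was 563 and 591 FPKM in Rec-1 sgRNA 1 and 2, inside the 372 to 677 of the other 4 libraries. MZB1 was above the Rec-1 control, by 0.76 and 0.65 on the log2 scale, as was SLAMF7, which was not tested. The part of any of these markers in the results was not tested. In such bulk samples fewer cells of a type and less RNA per cell cannot be told apart.

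As a description, the genes of the other lists whose pattern over the 6 libraries was most like that of a member were looked up among 117 candidates. For CD37 these were LILRB1 (Pearson r 0.982), CSNK2A2 (0.976) and BIRC2 (0.975). For CD52 they were SIAE (0.970), CD180 (0.957) and SLAMF6 (0.943), for MS4A1 FCRL5 (0.954), IL4R (0.868) and TSPAN3 (0.852), and for FCER2 PIGK (0.963), CD55 (0.958) and IL2RG (0.955). The 6 libraries share lines, vectors and processing, and Rec-1 sgRNA stands apart from the rest at most genes.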

How the data were processed

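RNA-seq of 6 libraries was analysed from the authors' deposited FPKM table, with FPKM scaled by the authors per the file headers. TopHat and hg19 are named in the submitters' processing notes; the FPKM program, annotation, strand setting and absolute depth are not given in the sources used here. Low values shared a common step in 4 of the 5 libraries set against the Jeko control, but not in Rec-1 sgRNA 1 (2.31% of 562 genes), so whole reads were not recovered. Genes averaging 1 FPKM or more were tested as log2(FPKM + 1) with limma 3.58.1 in R 4.3.3 (eBayes with trend), from means of the 4 groups, or with line as covariate over both lines. The mean was taken over all 6 libraries, so genes low everywhere but in Rec-1 sgRNA entered through those libraries alone. The pseudocount of 1 understates changes of low genes. The limma code was tested on simulated data. Python 3.11.15 with pandas 2.3.3, numpy 2.4.6 and matplotlib 3.10.9 did the rest. Gene places are from GENCODE on GRCh37. The members and lists were chosen with earlier results of these data known. The named genes are the 10 members, their single ligands, paralogues or partners, and, from the lists other than the cell type marker lists, the 5 genes with the largest called rise and the 5 with the largest called fall between the sgRNA libraries; no list gene was called over both lines or in Jeko. Cell type markers, overlapping genes and the 4 risers of CD40 signalling were named after their values were seen.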

Additional observations from a re-analysis of the deposited data

Results flagged for a closer look

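The difference of the sgRNA libraries from the control was not the same in Rec-1 and Jeko by limma's interaction test (adjusted p under 0.05 over all genes) at 9 of the named genes, none of them among the 10 surface antigens described. On the log2 scale the Rec-1 difference minus the Jeko difference was 6.05 for CD24, 5.59 for MME, 4.70 for CD27, 3.83 for SLAMF6, 3.57 for TNFSF13, −6.99 for CD9, −3.15 for TNFAIP3, −2.17 for BIRC3 and −2.15 for MAP3K14. The interaction was called for 6.94% of all genes tested. All but TNFSF13 were named for a large called difference between the sgRNA libraries, and the controls of the lines correlated at 0.988. The interaction thus largely repeats that choice and is no separate support. MME, SLAMF6 and TNFSF13 were tested only because they were high in Rec-1 sgRNA, which fixed their direction. Each rests on 1 control a line, and an effect of the sgRNA and any other difference between the Rec-1 libraries cannot be told apart. All 9 calls were lost without Jeko sgRNA 2. Those of TNFAIP3, BIRC3 and MAP3K14 were also lost without any other 1 of the 4 sgRNA libraries (limma adjusted p 0.0615 to 0.145) and with no filter on low values, those of MME and CD27 without Jeko sgRNA 1, that of CD24 without either Rec-1 guide and that of CD9 without Rec-1 sgRNA 2. For the 6 other than TNFAIP3, BIRC3 and MAP3K14 the highest adjusted p was 0.0511 to 0.0677. CD5 (0.16), BST1 (0.92) and CD46 (0.64) were below the own-line control in both Jeko libraries and above it in both Rec-1 libraries. For CD46 the interaction did not pass limma (adjusted p 0.299), and for CD5 and BST1, below 1 FPKM throughout, the difference was not tested.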

How the results depend on the processing

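Over the alternatives the members kept their direction wherever they had passed the threshold. Leaving out 1 library in turn gave 803 to 2940 called genes for Rec-1 sgRNA against Jeko sgRNA (0 to 3 members), 657 to 2180 for Rec-1 sgRNA against its control (0 to 3 members), 75 to 454 for the interaction, and 11 to 2180 over both lines (0 to 3 members), the highest without the Jeko control; a lone library is then assumed to vary like the others. A minimum mean of 5 FPKM gave 1549, 1083 and 318 genes for the first 3. Over both lines no filter gave 12, adjustment for transcript length 16 and protein-coding genes only 0 (2323 at an unadjusted p under 0.05). Protein-coding genes only gave 3 genes in Jeko, and 5 members both for Rec-1 against Jeko sgRNA and for Rec-1 sgRNA against its control, where no filter gave 0 members. A replicate block on guide number called 2638 genes for Rec-1 against Jeko sgRNA and 9 over both lines. CD37 and CD52 kept their call there, FCER2 gained one (limma adjusted p 0.0121) and ROR1 lost it (0.0616). The labels do not say that the numbers pair the libraries, and the guides' deviations in Jeko and Rec-1 had a correlation of 0.207 in protein-coding genes (0.0998 with every gene included). Of 14 other named genes called between the lines' sgRNA libraries, 7 lost the call without at least 1 library (TNFRSF13B, TNFRSF17, ADAM10, CD180, TNFAIP3, NFKB2 and BIRC3, limma adjusted p 0.0510 to 0.168). TNFRSF13B also lost it with no filter (0.0578). CD5, CD40LG and TNFSF13B were near 0, where low depth and absence of the transcript cannot be told apart.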

Other observations

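Among 12 tested tetraspanins related to CD37, 4 rose and 1 fell in Rec-1 sgRNA against Jeko sgRNA (median 0.39, limma). Of all genes tested, 12.8% rose and 13.0% fell. At 1 FPKM or more were 9 of the 13 listed in each Jeko library and the Rec-1 control, and 12 in each Rec-1 sgRNA library. Some of the 12, among them CD82, were thus tested only because they were high in Rec-1 sgRNA, which fixed their direction. CD53, a leukocyte tetraspanin, was 53.7 and 74.3 FPKM in Rec-1 sgRNA against 72.9 and 62.9 in Jeko sgRNA. CD81, a partner of the B-cell co-receptor, was 586 and 424 FPKM against 514 and 348. CD82 was 5.28 and 11.4 FPKM in Rec-1 sgRNA, listed at 0 in both Jeko sgRNA libraries and at 0.109 or less in the controls.

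CD72, an inhibitory receptor of B cells like CD22, was 21.9 FPKM in the Jeko control, 8.14 and 13.5 in Jeko sgRNA 1 and 2, 33.6 in Rec-1 control, and 123 and 119 in Rec-1 sgRNA 1 and 2 (limma log2 difference between the lines' sgRNA libraries 3.40, adjusted p 0.00490). Of 13 tested genes of CD22 ligand synthesis and inhibitory signalling, it was among 5 that rose, and 0 fell (median 0.93). Of all genes tested, 12.8% rose and 13.0% fell. At 1 FPKM or more were 12 of the 16 found in each Jeko library and the Rec-1 control, and 13 in each Rec-1 sgRNA library. LILRB1 was thus tested only because it was high in Rec-1 sgRNA, which fixed its direction. CD72, CD82, CD53 and CD81 were named after their values were seen.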
